A study of Arabidopsis thaliana with 12 samples.

Results

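In Arabidopsis thaliana seedlings, 80 EST clones carried a transcript that was more abundant after each of the calmodulin antagonists TFP and W7 than after their solvent, and more abundant after W7 alone than after W7 preceded by lanthanum. An EST clone is a cDNA spotted on the array that stands for part of one transcript, and several clones can stand for the same gene. The 80 were 80 of 11926 EST clones on the array. They were chosen on the authors' deposited ratios in 3 steps. To begin with, a clone had a raw intensity of at least 500 in either channel on all 3 TFP arrays, which 6939 clones did. Next, its mean log2 ratio was at least 1 over the 3 TFP arrays and over the 3 W7 arrays, with all 6 values above 0, which left 196 clones. Last, its mean log2 ratio of W7 over La+W7 was at least 1, with all 3 values above 0, which left the 80. The other 116 of the 196 missed this lanthanum step and serve as the closest set for comparison. A log2 ratio of 1 is a doubling, and the values of the 9 arrays that chose the clones are given as a description without a test.

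The study had 4 experiments of 3 two-colour arrays, each array holding RNA of the treatment named first in one channel and RNA of the treatment named second in the other. The experiments were TFP over DMSO, W7 over DMSO, W7 over La+W7, and La+W7 over La+DMSO. All seedlings were sampled after 1 h of treatment, DMSO was the solvent control, and La marks a pretreatment with lanthanum ions, which the seedlings on both sides of La+W7 over La+DMSO had received. According to the design text, the 3 arrays within an experiment came from separate biological repeats, and the RNA was taken from whole seedlings. Neither doses, nor seedling age, ecotype or the length of the pretreatment are stated in the labels.

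As background, calmodulin is a small protein that binds calcium ions and then docks on other proteins, among them protein kinases, ion pumps, calcium channels and transcription factors. TFP (trifluoperazine, a phenothiazine) and W7 (a naphthalenesulfonamide) both occupy the hydrophobic pockets that calcium-loaded calmodulin uses for docking, and neither acts on calmodulin alone. Lanthanum ions block many calcium-permeable channels of the plasma membrane and are used to separate responses that need calcium entry from those that do not. In plants, touch, cold and wounding raise calcium in the cytosol within seconds and raise transcripts of several calmodulin-like genes soon after.

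The spot names are EST identifiers that the files do not pair with genes, and 0 of them matched the supplied table of 38312 genes. Clones are therefore given by spot name, with no gene name, sequence or function, and the lists of calcium, stress and organ marker genes drawn up for the comparison could not be applied. In whole seedlings, fewer cells that express a transcript and less transcript per cell cannot be told apart.

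Several features of the arrays bear on what follows. The scanner file supplied for W7 array 2 was identical to that of W7 array 1, so W7 array 2 entered through the deposited ratio only, and values from scanner files rest on 11 of the 12 arrays. By the labels, Cy5 marked the first-named RNA in TFP over DMSO (arrays 1 and 2), in W7 over DMSO (array 2) and in La+W7 over La+DMSO (arrays 2 and 3). Cy3 marked it on all others, including the 3 arrays of W7 over La+W7. No experiment was balanced for dye. All 3 arrays of W7 over La+W7 had the same orientation, so dye and lanthanum cannot be told apart in the experiment of the lanthanum step. Over the 6939 clones, W7 over DMSO array 3 and W7 over La+W7 array 2, which shared a dye orientation, correlated at r = -0.32, against -0.05 over the 80 clones. W7 over La+W7 array 2 and TFP over DMSO array 2, of opposite dye orientation, correlated at r = -0.49 over the 6939 clones and -0.10 over the 80. Without W7 over La+W7 array 2 the rule gave 77 clones, of which 63 were among the 80. W7 over DMSO array 1 correlated over the 6939 clones with W7 over La+W7 array 1 at r = 0.63 and with its array 2 at r = 0.41. Over the 80 these values were 0.45 and 0.37. The design text speaks of 1 dye swap per experiment, but labels and headers give the 3 arrays of W7 over La+W7 the same orientation. The dyes are stated in the labels and, for the 11 arrays with their own scanner file, in the headers. For W7 over DMSO array 2 they rest on the label alone. The directions were kept as the labels state them. Reversal of an array was not tested. Across clones the median deposited ratio was 0.95 to 1.01 on the 12 arrays. All 80 clones passed the filter on dim spots and were among the 11529 clones in the fit below, and each was a single spot.

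**Figure D1:**
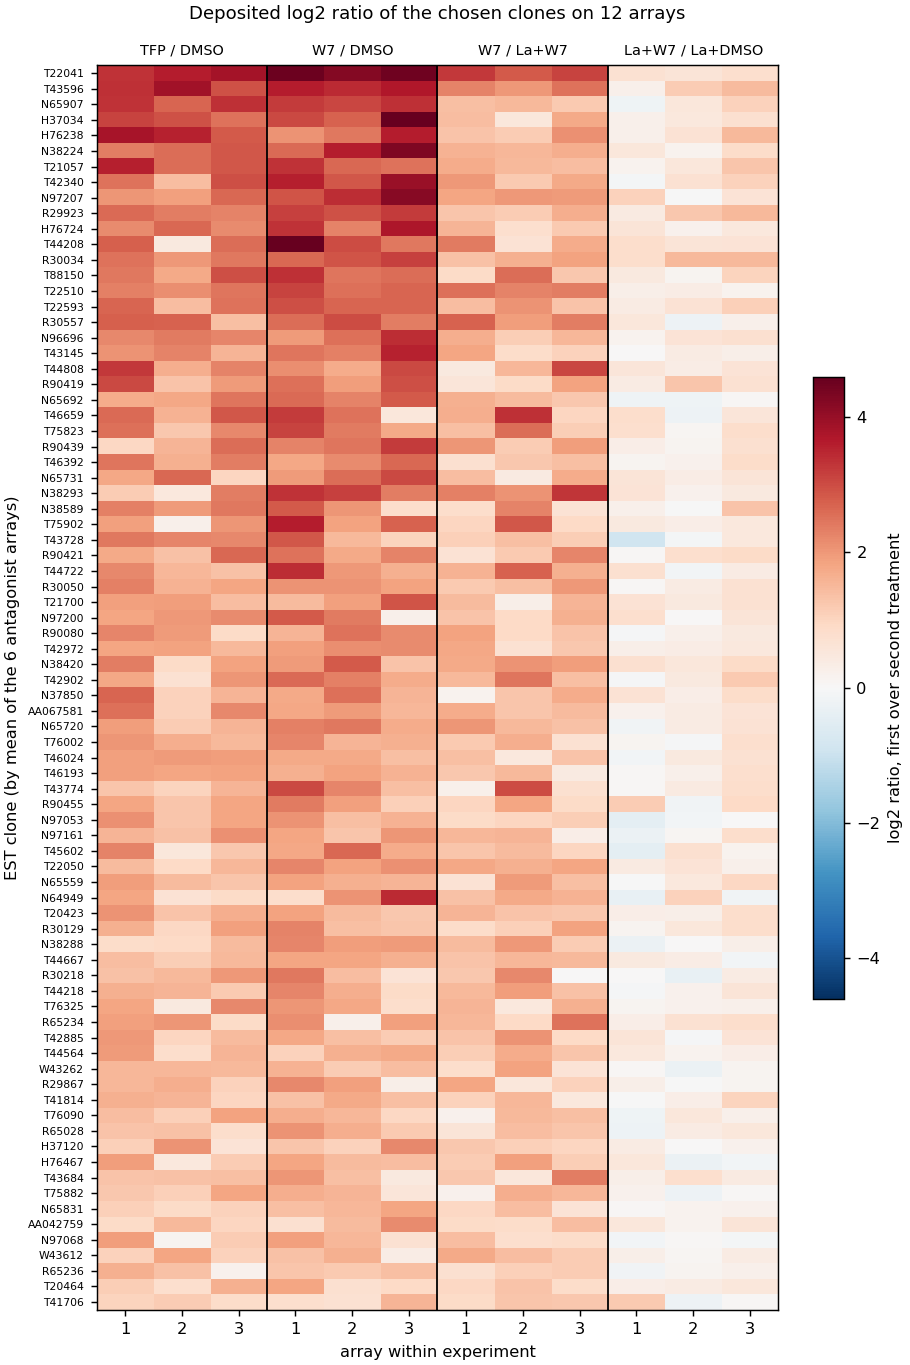
Heat map of the deposited log2 ratio (first over second treatment, colour scale) of the 80 clones (rows, highest mean of the 6 antagonist arrays at the top) on the 12 arrays (columns, in experiments of 3). The first 9 columns, which chose the clones, hold positive values throughout, and the 3 columns of La+W7 over La+DMSO range from -0.92 to 1.50.

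The 80 clones covered a wide range of response to the antagonists. The median clone had a log2 ratio of 1.91, 1.50 and 1.83 on the 3 arrays of TFP over DMSO, a mean of 1.75 ± 0.22 (SD, n = 3 arrays) or 3.36-fold. The median clone had 2.18, 1.94 and 1.79 on the arrays of W7 over DMSO, a mean of 1.97 ± 0.19 (SD, n = 3) or 3.93-fold. For W7 over La+W7 the 3 medians were 1.35, 1.47 and 1.37, a mean of 1.40 ± 0.07 (SD, n = 3) or 2.63-fold. The clone means ran from 1.00 to 3.59 for TFP, from 1.02 to 4.40 for W7 and from 1.00 to 3.05 for W7 over La+W7. A mean of 2 or more was reached by 23 clones for TFP, by 42 for W7 and by 6 for W7 over La+W7, and 43 clones were at 1 or above on each of the 6 antagonist arrays.

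T22041 had the strongest response to both agents together. Its log2 ratio was 3.34, 3.61 and 3.82 with TFP over DMSO. It was 4.52, 4.21 and 4.46 with W7 over DMSO, means of 12.0-fold and 21.1-fold. All 6 values were above the highest value of any other experiment for this clone, and they varied little between arrays (SD 0.24 for TFP and 0.16 for W7). In the scanner's raw units T22041 gave 4789, 16074 and 6540 in TFP seedlings, against 492, 1508 and 442 in DMSO seedlings on the same arrays. It gave 26307 and 14412 in W7 seedlings on arrays 1 and 3, against 1222 and 789 in DMSO seedlings.

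T43596 came next, with 3.35, 3.86 and 2.92 for TFP and 3.62, 3.42 and 3.68 for W7. N65907 had 3.32, 2.69 and 3.35 for TFP and 3.22, 3.07 and 3.36 for W7. For both clones the ranges of the 2 agents overlapped. H37034 had 3.12, 2.94 and 2.48 for TFP but a wide spread for W7, with 3.03, 2.70 and 4.57. H76238 was the one of the 8 strongest clones with the largest excess for TFP, at 3.80, 3.54 and 2.81, against 2.05, 2.44 and 3.62 for W7, and the ranges still overlapped. N38224 leaned the other way, with 2.34, 2.56 and 2.85 for TFP and 2.59, 3.61 and 4.28 for W7. T21057 had 3.56, 2.58 and 2.85 for TFP, with a saturated spot on array 2, and 3.31, 2.64 and 2.51 for W7. T42340 had the lowest single value of these 8 clones, 1.41 on TFP array 2, beside 2.50 and 2.95 on the other TFP arrays and 3.59, 2.86 and 3.98 for W7.

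W7 gave the higher mean in 59 of the 80 clones, and the median excess of W7 over TFP was 0.29 on the log2 scale, with a range from -0.68 (H76238) to 1.60 (N38293). W7 had the higher mean in 48.6% of all 11529 clones, and both means chose the 80, so nothing is read from the count. All 3 W7 values lay above all 3 TFP values in 12 clones and below them in 1 (T46024), against 3.48% and 4.03% of all clones. The headers place array 3 of each agent, with the first-named RNA in Cy3, in one image folder. On these arrays W7 was above TFP in 47 of 80 clones, and the 2 medians were 1.79 for W7 and 1.83 for TFP. For 8 of the 80, neither channel of W7 array 3 was above the blank spots, and their log2 ratios there were 0.24 to 0.81. Nothing is read from this count either. Doses were not given, so the 2 agents were not ranked.

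**Figure D2:**
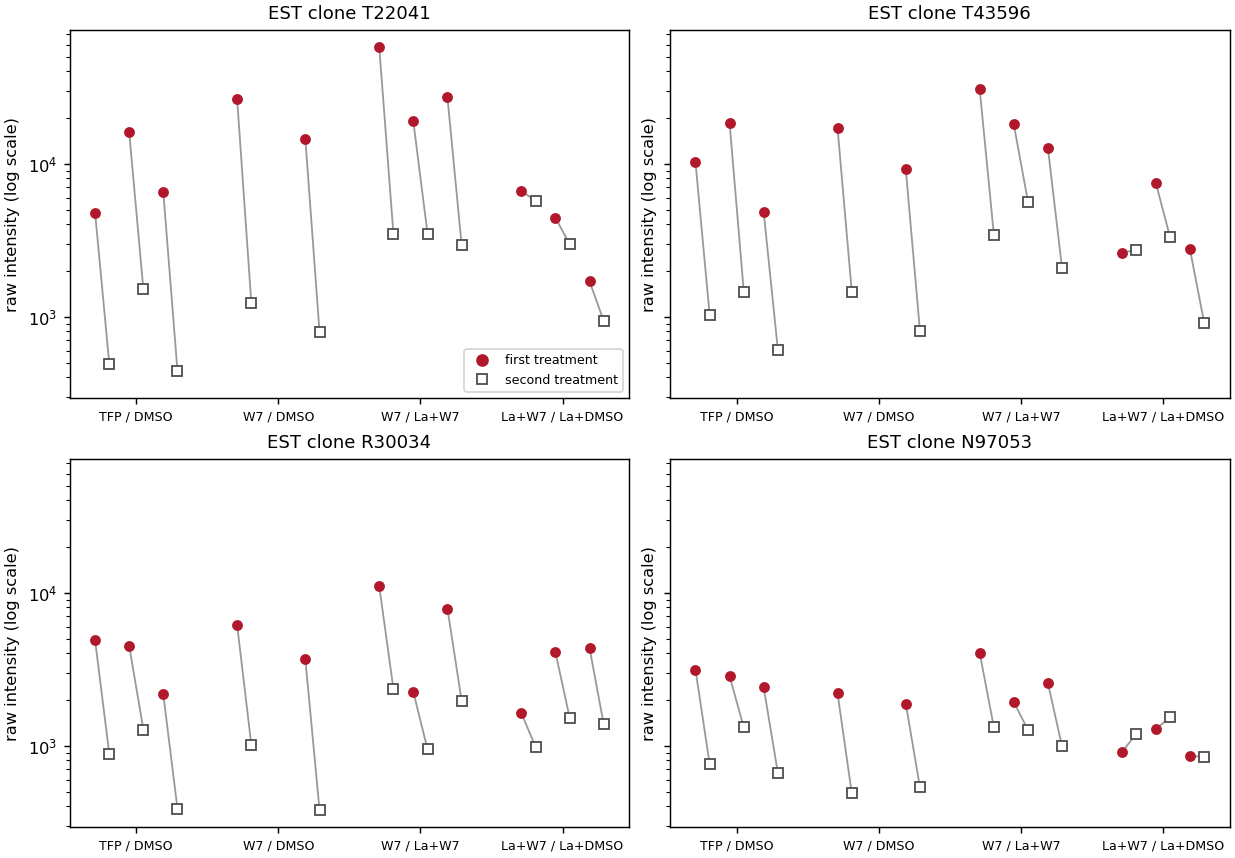
Raw spot intensity (log scale, scanner units, not normalized) of 4 of the clones in the first-named (filled) and second-named (open) RNA of each array, joined per array, for the 4 experiments; W7 over DMSO has 2 arrays with a scanner file. T22041 and T43596 show a wide gap in the first 3 experiments, and N97053 shows none in La+W7 over La+DMSO.

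The lanthanum step compared seedlings given W7 with seedlings given the same agent after lanthanum. T22041 again stood highest, with log2 ratios of 3.24, 2.81 and 3.10 for W7 over La+W7, a mean of 8.28-fold. Its raw signal was 57860, 18893 and 27120 in W7 seedlings, against 3465, 3483 and 2937 in La+W7 seedlings, so the channels were apart on all 3 arrays. N38293 had 2.33, 2.05 and 3.28 for W7 over La+W7, T22510 had 2.54, 2.30 and 2.35, and R30557 had 2.72, 1.92 and 2.35. The La+W7 channel of N38293 was not above the blanks on array 2, so its 2.05 there rests on a dim spot. T43596 had 2.30, 2.00 and 2.50. T46659 completes the 6 highest by its mean of 2.01, but its values of 1.69, 3.36 and 0.99 were far apart (SD 1.22), and array 2 carried it. On W7 over DMSO it had 3.21 and 2.51 on arrays 1 and 2, and its 0.54 on array 3 came from a spot with neither channel above the blanks.

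Set against the response to W7 itself, the log2 ratio of W7 over La+W7 was 35.8% to 130% of the log2 ratio of W7 over DMSO, with a median of 69.2%. It was under 50% in 10 clones, the lowest being H37034, and at or above 100% in 4 clones. N38293, T22510 and R30557 were at 86.6%, 86.3% and 88.4%, and T22041 was at 69.3%. Those 4 were W43612 (130%), R65234 (117%), T41706 (112%) and T43684 (106%). On W7 over DMSO array 3 neither channel of W43612 or T43684 was above the blank spots, and without that array their shares were 96.7% and 80.0%. The second-named channel of R65234 was not above the blanks on array 1 of either experiment. T41706, with both channels above the blanks on every array with a scanner file, was the weakest W7 responder of the 80, at a mean log2 ratio of 1.02. RNA of W7 seedlings enters both ratios, so the shares are a description.

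**Figure D3:**
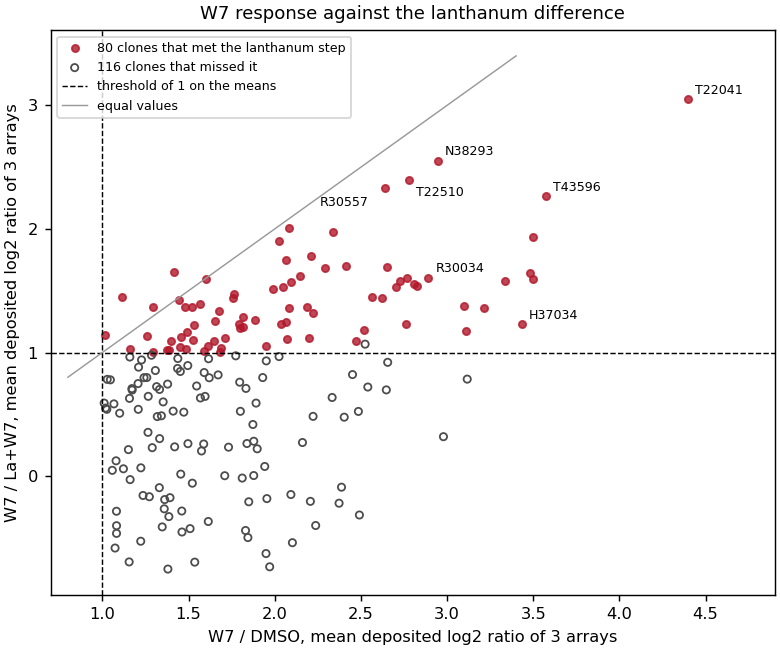
Mean deposited log2 ratio of W7 over La+W7 (vertical, 3 arrays) against that of W7 over DMSO (horizontal, 3 arrays) for the 80 clones (filled) and for the 116 that missed the lanthanum step (open); dashed lines mark the threshold of 1 and the grey line equal values. The 80 fill the area above the threshold by construction, T22041 stands apart at 4.40 and 3.05, and the open point above the line is N65729, which had -0.04 on array 2.

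The thresholds cut through a continuous spread. Just inside the TFP threshold were T41706 (mean log2 ratio 1.00) and N65831 (1.00), and just outside it, with the other steps met, N96364 (0.99) and N97187 (0.96). Just inside the W7 threshold were T41706 (1.02) and W43612 (1.11), and just outside it T20807 (0.94) and T22042 (0.93). The mean of W43612 was 1.50 without its dim spot on array 3. Just inside the threshold for W7 over La+W7 were N97053 (1.00) and R65236 (1.01), and just outside it N65258 (0.98) and R90414 (0.97). These pairs differ by less than the spread between arrays, which was 0.44 at the median clone for W7 over La+W7 (SD, n = 3). With loess ratios computed from the scanner files, 79 of the 80 met all steps.

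The arrays of La+W7 over La+DMSO did not enter the choice and ask what W7 still did to these transcripts once lanthanum was present. The La+W7 treatment is also the second-named side of W7 over La+W7, which separated the 80 from the 116. Comparing these sets here is therefore not fully apart from the choice. The median of the 80 clones was 0.29, 0.31 and 0.61 on arrays 1, 2 and 3 (loess log2 ratio), a mean of 0.40 ± 0.18 (SD, n = 3 arrays) or 1.32-fold. The median of the 116 clones that missed the lanthanum step was 0.20, 0.27 and 0.33, a mean of 0.27 ± 0.06 (SD, n = 3). Over all 11529 clones the mean of the 3 medians was 0.00. Of the 80 clones, 49 were above 0 on all 3 arrays (61.25%), as were 47 of the 116 (40.5%) and 11.5% of all clones. Only N97053 was below 0 on all 3 arrays, as were 11.3% of all clones.

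No single clone passed the test. In the limma fit of these 3 arrays, 0 of 11529 clones (0%) had a Benjamini-Hochberg adjusted p under 0.05, and every one of the 80 had an adjusted p of 0.999. At an unadjusted p under 0.05, 37 of the 80 (46.25%) were higher in La+W7 than in La+DMSO, against 2.15% of all clones (248), and 0 of the 80 were lower, against 1.54% of all clones (177). Of the 116 clones, 20 (17.2%) were higher at this level. A fitted log2 ratio of 0.5 or more was reached by 27 of the 80 and by 12 of the 116, against 2.55% of all clones. A ratio of 1 or more was reached by 2 of the 80, R30034 and R29923, against 0.226% of all clones.

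These counts depended on the arrays and on the variance model. The count of 37 was 9 without array 3 and 41 without array 1, and it was 0 with a trended and robust variance in limma. It was 14 when all 11 arrays with a scanner file, among them arrays that chose the clones, shared one fit with a dye term. By the deposited log2 ratios, array 3 gave the highest value of the 3 for 54 of the 80 clones. Arrays 2 and 3, but not array 1, shared a dye orientation and an image folder in the headers. Across the 80 clones, the deposited log2 ratios of arrays 2 and 3 correlated at r = 0.48 and those of arrays 1 and 2 at r = -0.07. Across the 6939 eligible clones these values were 0.20 and -0.20. The part of dye and image folder in the result was not tested beyond these values.

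R30034 had the highest ratio of the 80 in this experiment, at 0.90, 1.50 and 1.49 (loess log2 ratio), with a fitted value of 1.29 (SE 0.18, limma unadjusted p = 0.0003, adjusted p = 0.999). Its raw signal was 1633, 4084 and 4351 in La+W7 seedlings, against 981, 1525 and 1377 in La+DMSO seedlings. The first-named channel was brighter on each array. R30034 was the one clone called when only the 6939 eligible clones were fitted (limma adjusted p = 0.017, 0.0144% of clones called). With dye orientation as a coefficient the limma fit called 107 clones higher (0.928%) and 4 lower (0.0347%), among them R30034 (1.196, adjusted p = 0.015) and R29923 (0.89, adjusted p = 0.047) of the 80 and 0 of the 116. That fit leaves 1 residual degree of freedom, since array 1 alone had the other orientation.

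R29923 had 0.41, 1.24 and 1.51, T43596 had 0.27, 1.17 and 1.47, H76238 had 0.36, 0.68 and 1.52, and R90419 had 0.49, 1.33 and 0.70. All 4 were above 0 on each array after loess, with array 1 the lowest. Before normalization, the La+W7 channel of array 1 was the dimmer one for R29923 (5587 against 5876) and T43596 (2618 against 2724). It was the brighter one for H76238 (1071 against 867) and R90419. R90419 was dim, with raw signals of 1224, 582 and 613 in La+W7 seedlings, against 927, 308 and 402 in La+DMSO seedlings, and its La+DMSO channel was not above the blanks on array 2. T22041, the strongest responder to the antagonists, had 0.73, 0.60 and 0.77 in La+W7 over La+DMSO, the tightest of these named clones (SD 0.09), with a fitted value of 0.70 (SE 0.15, limma unadjusted p = 0.0027, adjusted p = 0.999). That is 1.61-fold by the deposited ratios, beside 21.1-fold for W7 over DMSO.

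At the low end, N97053 had -0.36, -0.12 and -0.003, T43728 had -0.91, -0.08 and 0.48, and N65692 had -0.17, -0.19 and 0.05. The -0.91 of T43728 came from a spot whose La+W7 channel was not above the blanks (raw 360, against 416 in La+DMSO). N97068 had -0.11, 0.06 and -0.09, and W43262 had 0.03, -0.28 and 0.14. Of these 5 clones, N65692 had responded strongly to the agents given alone, with 1.71, 1.79 and 2.47 for TFP and 2.59, 2.28 and 2.83 for W7 over DMSO. Its W7 values in seedlings without lanthanum did not overlap those in seedlings with it. For the 80 as a whole, all 3 values of W7 over DMSO were above all 3 values of La+W7 over La+DMSO in 70 clones (87.5%), against 8.28% of all clones, where W7 over DMSO was one of the ratios that chose them.

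**Figure D4:**
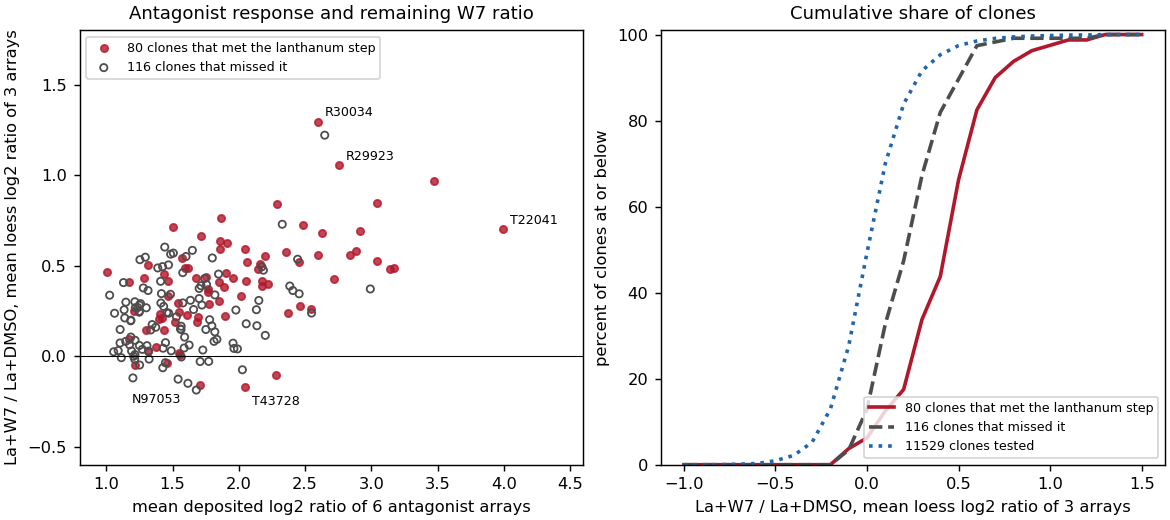
Left, mean loess log2 ratio of La+W7 over La+DMSO (3 arrays) against the mean deposited log2 ratio of the 6 antagonist arrays, for the 80 clones (filled) and the 116 that missed the lanthanum step (open). Right, the percent of clones at or below each value of that loess ratio for the 80, the 116 and all 11529 clones; the line of the 80 lies to the right of the line of all clones.

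The ratio under lanthanum was set beside the strength of the antagonist response. The 20 clones with the highest mean over the 6 antagonist arrays had medians of 0.39, 0.53 and 0.81 in La+W7 over La+DMSO, a mean of 0.58 ± 0.21 (SD, n = 3 arrays). The next 20 had 0.35, 0.21 and 0.64, a mean of 0.40 ± 0.22. The 20 after them had 0.03, 0.32 and 0.69, a mean of 0.34 ± 0.33. The 20 with the lowest antagonist means had 0.27, 0.14 and 0.24, a mean of 0.22 ± 0.07. The means fall in this order, but no single array follows it throughout. Only the first and last of these 4 means lie further apart than the SD of both. Across the 80 clones the mean ratio in La+W7 over La+DMSO correlated with that of TFP at r = 0.51 and with that of W7 at r = 0.52, where clones share arrays and spot quality. Over the 116 clones the 2 values were 0.34 and 0.27, and over the 6939 clones 0.39 and 0.36.

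The 80 and the 116 were then compared on each array of La+W7 over La+DMSO. The median of the 80 was higher by 0.09, 0.04 and 0.28 on arrays 1, 2 and 3, a mean difference of 0.14 ± 0.13 (SD, n = 3 arrays), which is about as large as its spread. Without array 3 it was 0.07. In a fit of all 11 arrays with a dye term it was 0.27. That fit shares its dye term and spread with arrays that chose the sets, so its value is no check apart from the choice. The 80 also had the higher antagonist response by the means of the array medians (deposited log2 ratios). These were 1.75 against 1.53 for TFP and 1.97 against 1.54 for W7. On TFP array 2 (2.03 against 1.50) and W7 array 3 (1.83 against 1.79) the 116 had the higher median. Between the quartiles of the antagonist means of the 80 (1.53 to 2.30), 40 of the 80 had medians of 0.22, 0.30 and 0.68 on arrays 1, 2 and 3. Their mean was 0.40 ± 0.25. In the same range 46 of the 116 had 0.24, 0.23 and 0.28, a mean of 0.25 ± 0.03 (SD, n = 3 arrays). Within this range the 40 were thus below the 46 on array 1, and most of the gap was on array 3. That gap was smaller than the SD of the 40.

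The label lanthanum-sensitive, given by W7 over La+W7, can be set against La+W7 over La+DMSO. For the 80 the array medians averaged 1.97 ± 0.19 for W7 over DMSO and 0.39 ± 0.19 for La+W7 over La+DMSO (deposited log2 ratios, SD, n = 3 arrays each). For the 116 they averaged 1.54 ± 0.25 and 0.26 ± 0.08. In 107 of the 116 clones (92.2%), too, all 3 values of W7 over DMSO were above all 3 values of La+W7 over La+DMSO. Both sets were chosen for a high W7 over DMSO and not on La+W7 over La+DMSO, so a lower value in the second follows in part from the choice, and nothing is read from it. The sets were separated by the choice itself in W7 over La+W7, at 1.40 ± 0.07 for the 80 and 0.29 ± 0.23 for the 116. For the 116 its arrays differed, with medians of 0.45, 0.03 and 0.38 on arrays 1, 2 and 3. On these arrays 91, 59 and 91 of the 116 were above 0, so array 2 weighs on which clones missed the step.

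**Figure D5:**
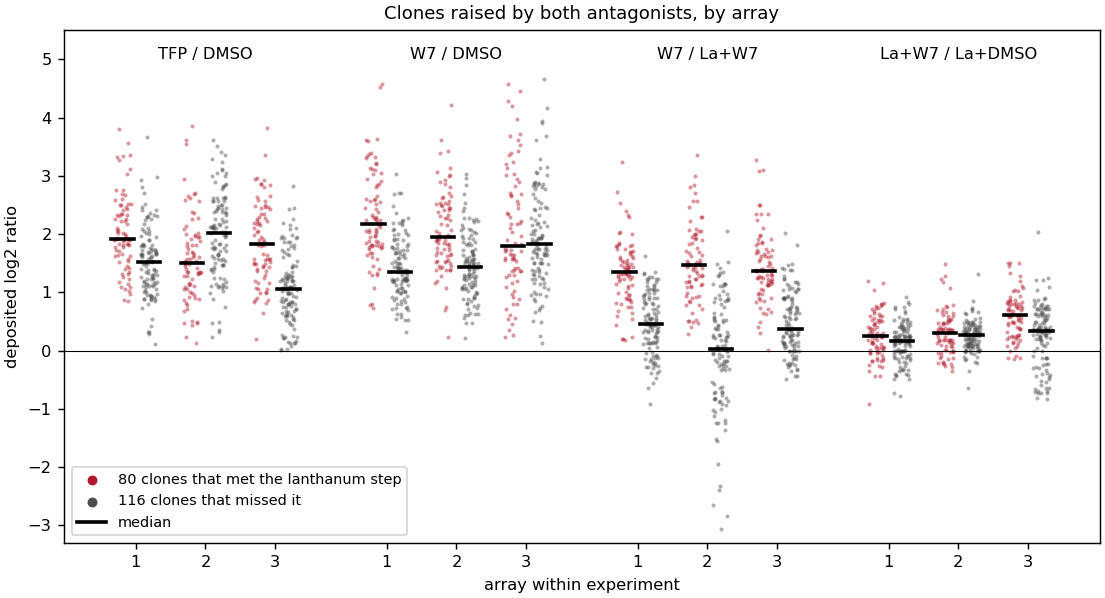
Deposited log2 ratio of the 80 clones that met the lanthanum step (red, left of each pair) and of the 116 that missed it (grey, right) on each of the 12 arrays; each point is a clone and each bar a median. The medians are furthest apart on the 3 arrays of W7 over La+W7, which chose the sets, and the points of the sets overlap on every array.

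The arrays do not compare La+DMSO with DMSO directly, but 3 of the experiments and that comparison close a loop, so it was computed per clone as the W7 over DMSO mean minus the other 2 means. For the 80 the implied log2 ratio of La+DMSO over DMSO had a median of 0.27, with 61 of 80 above 0 and 9 at 1 or more. For the 116 the median was 1.098, with 112 of 116 above 0 and 60 at 1 or more. Over all 11529 clones the median was -0.02, with 48.6% above 0 and 3.10% at 1 or more. The highest implied value among the named clones of the 80 was that of H37034, at 1.73, and N65907 and N38224 were at 1.40 and 1.39. R30034, T22510 and R30557 were at 0.03, 0.13 and 0.12, and N38293 was at -0.04. In the same way, La+W7 over DMSO had an implied median of 0.56 for the 80 (76 above 0), against -0.03 over all 11529 clones (47.7% above 0). For the 116 it was 1.31 (116 above 0). Both sets were chosen for a high W7 over DMSO, which is added here, so positive values follow in part from the choice. The lanthanum step sets a high value of W7 over La+W7 for the 80 and a low one for the 116, and that value is subtracted here, so the gap between the sets follows in part from the choice, and no test was made.

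The 80 clones were not spread evenly over the array. Print block 28, one of 32 blocks of the array's grid, held 13 of them (16.25%), where it held 268 of the 6939 eligible clones (3.86%) and 1 of the 116. The next fullest block held 6, and 4 blocks held none. All 268 eligible clones of block 28 had medians of 0.25, 0.30 and 0.14 for W7 over La+W7, so that the block as a whole was shifted in the experiment of the lanthanum step. Its medians for La+W7 over La+DMSO were -0.09, -0.03 and 0.09. Among the named clones N38224, N38293, N97053, R65236 and W43612 lie in it. When each array was centred within every block, the same rule gave 81 clones, of which 68 were among the 80, and 9 lay in block 28.

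Without the clones of block 28, the other 67 had means over arrays of 1.77 ± 0.23 for TFP over DMSO, 1.96 ± 0.20 for W7 over DMSO and 1.39 ± 0.08 for W7 over La+W7 (deposited log2 ratios, SD, n = 3 arrays). In La+W7 over La+DMSO they averaged 0.42 ± 0.20 by loess, against 0.40 ± 0.18 for all 80. The values of the 80 as a group thus moved by less than the spread between arrays when the block was left out. Of the 80, 6 clones formed 3 pairs in adjoining spots.

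Low signal affected one array most. Both channels were above the blank spots on all arrays with a scanner file for 78 of 80 clones in TFP over DMSO, 69 in W7 over DMSO, 77 in W7 over La+W7 and 77 in La+W7 over La+DMSO. On W7 over DMSO array 3, both channels were above the blanks for 70 of the 80. For 8 of the 80 neither channel was above them there, and the deposited log2 ratios of these 8 on that array were 0.24 to 0.81, values that enter their W7 means and shares. On no other array with a scanner file did any of the 80 have both channels at or below the blanks. The median raw signal of the 80 was 4310, 5365 and 3219 in TFP seedlings, against 1097, 1696 and 820 in DMSO seedlings on the same arrays. It was 3118, 2878 and 2658 in La+W7 seedlings, against 3271, 2076 and 1402 in La+DMSO seedlings. One spot, that of T21057 in the TFP channel of TFP array 2, was saturated, so its ratio there is a lower bound.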

How the data were processed

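Transcript ratios were read from 12 two-colour arrays of 12288 spots, 3 in each of 4 experiments, grouped by the labels. The authors deposited raw spot intensity per channel (scanner output, with no normalization per the file headers) and a table of 1 linear ratio of the first over the second treatment per spot and array, with its normalization unstated. The 80 clones were chosen on log2 of the deposited ratio. For the test, intensities were corrected for background (normexp, offset 50) and each array was then normalized by loess, giving blanks a weight of 0 (limma 3.58.1, R 4.3.3). La+W7 over La+DMSO was fitted on its 3 arrays alone (lmFit, eBayes, two-sided, 2 residual degrees of freedom), for clones above the 95th percentile of the blanks on at least 2 arrays. All p-values come from limma. The fit was tested on simulated data. The clones and lists were chosen with earlier results of these data known. Named clones are the 8 highest over the antagonist arrays, the 6 highest in W7 over La+W7, the 5 highest and 5 lowest in La+W7 over La+DMSO, called clones and those next to a threshold. Others were named after their values were seen. The number of arrays limits the precision.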

Additional observations from a re-analysis of the deposited data

How the results depend on the processing

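The 80 clones rest on 3 arrays per experiment with unbalanced dyes, and the 3 arrays of W7 over La+W7 had the same orientation. The number that met the rule was 52 at a threshold of 1.2 on the means and 64 to 113 under the other thresholds, minimums and normalizations, and it was 69 to 86 when 1 array was left out at a time. In La+W7 over La+DMSO, 0 clones were called in the limma fit, against 111 with a dye coefficient (107 higher, 4 lower) and 1 among eligible clones only, and 0 without any 1 array. The mean of the array medians of the 80 was 0.40, with 0.30 to 0.46 when 1 array was left out. The difference between the 80 and the 116 was 0.14, with 0.07 to 0.18 when 1 array was left out. It was 0.27 with all 11 arrays and a dye term and 0.29 with all 11 arrays, a dye term and a replicate block. Both of these fits share a dye term and a spread with arrays that chose the sets. The replicate block gave 0 calls and 10 clones at an unadjusted p under 0.05, where the 3 arrays fitted alone gave 37. Arrays with the same replicate number did not deviate together: 5 of 18 such pairs correlated above 0.1 (range -0.56 to 0.36), and 2 of 12 arrays were closest to their own number, so the numbers were not taken as pairs. Block centring and leaving out block 28 were chosen after the data were seen.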
